A study of Homo sapiens with 20 samples.

Results

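RNA granules were compared with exosomes in HD-induced HEK293 cells, a human embryonic kidney line. HD stands for Huntington's disease, and the labels do not say how the state was brought about, so no allele or agent can be named. The comparison took 9 of the 20 libraries of the series: 5 of HD-induced granules, which the labels call cytoplasmic RNA granule cores, and 4 of HD-induced exosomes. Exosome replicate 4 was left out because it held 1074 estimated reads. Both groups share the cell line, the HD induction, the mirVana isolation of total RNA and stranded total RNA sequencing in 2 x 100 bp read pairs, and the design text calls the 5 replicates of each group biological. The labels name no culture, date or batch, so p-values measure the spread between these libraries. The other 10 libraries used here were control exosomes and control granules of the same line, 5 of each. Because granule replicate 3 stood apart from the other granules, results are given with it and without it. The design text states the aim of comparing the RNA content of exosomes and granules in normal and Huntington cells.

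RNA granules are RNA and protein assemblies that no membrane bounds. They form in the cytoplasm, and stress granules and P-bodies are the best known of them, holding mRNAs that are not being translated. Exosomes are small vesicles with a membrane that are made inside endosomes and released from the cell, carrying protein and RNA to the outside. In Huntington's disease a repeat expansion in the HTT gene lengthens a glutamine tract in the huntingtin protein.

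Exosome libraries 1, 2, 3 and 5 held 12.1, 14.4, 1.98 and 4.25 Mreads (estimated reads in units of 1e6), of which 7.41, 1.94, 1.33 and 3.00 Mreads lay on named genes. Granule libraries held 27.0 to 35.8 Mreads, so depth differed with the compartment in every library. In exosome 2, 86.6% of reads lay on entries without a gene name, against 27.4% to 38.6% in the other 8 libraries. An index was taken per library as the mean log2 level of 1447 genes high in control granules minus that of 2279 genes high in control exosomes. It ran from -1.77 to -1.08 in control exosomes and from 1.35 to 2.28 in control granules. Exosomes 1, 2, 3 and 5 of HD-induced cells lay at -1.44, -0.24, -1.31 and -0.03. Granules 1, 2, 4 and 5 lay at 1.63, 2.30, 2.50 and 2.54, and granule 3 at -0.33. The library labelled HD granule 3 was therefore on the exosome side of 0, and exosomes 2 and 5 lay between the control groups. Levels below are CPM, a gene's counts per 1e6 reads on the named genes that passed the low-count filter, after scaling by trimmed means (TMM). In exosome 2 these were 1490691 reads, fewer than its 1.94 Mreads on all named genes. Values are always in the order exosomes 1, 2, 3, 5 and granules 1 to 5. A CPM is a share of the RNA in a library, and in such bulk preparations fewer particles with an RNA and less of it per particle cannot be told apart.

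**Figure D1:**
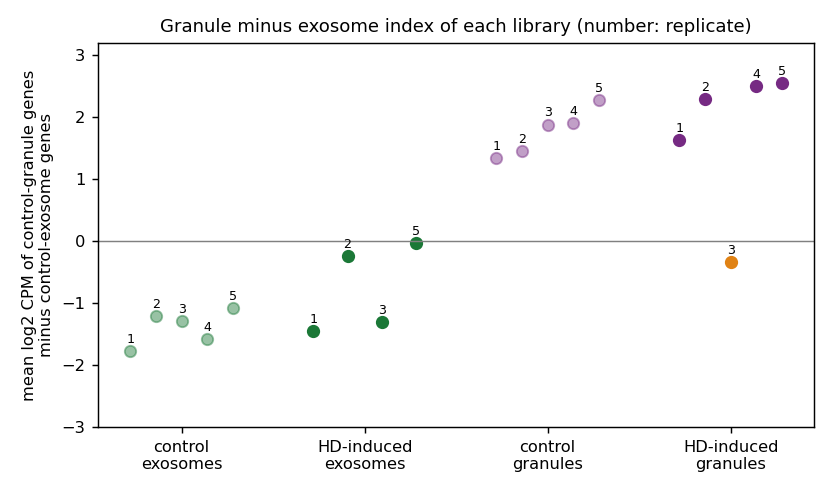
Index of each library (vertical axis, difference of mean log2 CPM) by group, each point 1 library with its replicate number. HD granule 3 (orange) lies at -0.33, among the HD exosomes and below the other 4 HD granules, which lie at 1.63 to 2.54.

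Of 16172 genes tested, 1648 (10.2%) were higher in granules and 1270 (7.85%) were higher in exosomes by edgeR's quasi-likelihood test at an adjusted p under 0.05, 18.0% in all. Without granule 3, 2842 (19%) and 2719 (18.2%) of 14929 genes were called, 37.2% in all. All 2718 genes called with 9 libraries that could be tested without granule 3 were called there too, in the same direction. Leaving out any one of the other 8 libraries gave 716 to 1511 genes higher in granules and 718 to 1084 higher in exosomes. These counts fell by more than 1.5 times without granule 2 (716 and 748), granule 4 (757 and 797), granule 5 (731 and 744) and exosome 1 (885 and 828). Without exosome 3 the 1029 calls higher in granules, and without granule 1 the 718 higher in exosomes, did so too. With the replicate number as a block 1516 (9.37%) and 1519 (9.39%) genes were called, but not all the same ones: 1121 of the 1648 genes higher in granules and 1092 of the 1270 higher in exosomes kept their call. The log2 ratio below is the fitted log2 fold change of granules over exosomes, and its median was 0.11 over all genes tested and 0.01 without granule 3. In 1686 genes (10.4%) all 5 granule libraries lay above all 4 exosome libraries, and in 1270 (7.85%) all exosome libraries lay above all granules. In control cells, which share no library with this comparison, 62.4% of 14777 genes were called. Of 2652 genes called in HD-induced cells and tested in both states, 2542 (95.9%) were also called in control cells in the same direction, which is 27.8% of the control calls. The difference between the states was tested as an interaction over 19 libraries, and it was called for 2 of 17002 genes (0.0118%), while 820 had an unadjusted p under 0.05 and DESeq2 called 21. The interaction count was 20 without exosome 1, 0 without exosome 5 and 0 with the replicate number as a block.

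Small nucleolar RNAs (snoRNAs), which guide chemical modification of ribosomal RNA, and their relatives of the Cajal body (scaRNAs), which guide modification of spliceosomal RNAs, were far more abundant in granules. Of 107 tested, 40 were higher in granules, 0 in exosomes, with a median log2 ratio of 4.20, and without granule 3 the counts were 64 and 0 of 104 with a median of 4.51. Among all genes 10.2% were called higher in granules, and 19% without granule 3. Of the 107, 16 held no exosome reads and entered the test through the granules.

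SNORA74A is a snoRNA of the H/ACA family and SNORD15B one of the C/D family. SNORA74A was at 6.30, 8.77, 3.25 and 0.947 CPM in exosomes and 453, 572, 22.3, 759 and 526 CPM in granules (log2 ratio 6.61 ± 0.99 (SE), edgeR adjusted p = 0.00291). Granules 1, 2, 4 and 5 were far above every exosome library, and granule 3 lay just above them. SNORD15B was at 3.48, 5.64, 5.19 and 8.21 CPM in exosomes and 275, 389.5, 8.66, 602 and 354 CPM in granules (log2 ratio 5.87 ± 0.98 (SE), edgeR adjusted p = 0.00426), picked after its values were seen, with granule 3 at the exosome level. SCARNA5 was at 14.3, 23.8, 11.7 and 12.3 CPM in exosomes and 2220.0, 2205, 73.1, 2045 and 2787 CPM in granules (log2 ratio 6.92 ± 0.93 (SE), edgeR adjusted p = 0.00224). SCARNA10 was at 89.4, 121, 32.5 and 43.3 CPM in exosomes and 9046, 9491, 367, 12693 and 17336 CPM in granules (log2 ratio 7.10 ± 1.05 (SE), edgeR adjusted p = 0.00271), and it was among the 5 RNAs of highest mean TPM in granules. SNORD13, whose RNA guides acetylation of ribosomal RNA, had reads in 1 exosome library: 0.134, 0, 0 and 0 CPM there and 67.7, 121, 2.08, 173 and 114 CPM in granules (log2 ratio 10.22 ± 1.54 (SE), edgeR adjusted p = 0.00291). In each of these 5 RNAs granule 3 lay nearer to the exosomes than to the other granules. Near-identical copies such as SNORA74B can share reads with SNORA74A, so single members are less certain than the class. As a class, snoRNAs and scaRNAs took 1.34%, 1.33%, 0.0641%, 1.52% and 1.98% of all reads in granules 1 to 5 and 0.0164%, 0.0121%, 0.0174% and 0.0213% in exosomes. The groups did not overlap, and the mean was 1.25% ± 0.711 (SD, n = 5) against 0.0168% ± 0.00379 (SD, n = 4), a ratio of 74.2. The exact 2-sided permutation p was 0.0159, the smallest that 5 against 4 libraries allow, and 0.159 after adjustment over 10 RNA classes, so it missed the threshold. Without granule 3 the granule mean was 1.54%, a ratio of 91.8 (exact p = 0.0286, the smallest that 4 against 4 libraries allow, adjusted 0.143). The share of all reads counts unnamed entries, which held 86.6% of exosome 2. Of reads on named genes, snoRNA transcripts took 0.0778% in exosome 2 and 0.0764% in granule 3, so the groups then overlapped. Their means were 1.39% in granules and 0.0341% in exosomes, a ratio of 40.8 (exact p = 0.0317, adjusted over 21 transcript classes 0.0833). For scaRNA transcripts the groups stayed apart, with 0.0261% in granule 3 and at most 0.0127% in exosomes. Ribozyme RNAs, which here are the RNA parts of RNase P (RPPH1) and RNase MRP (RMRP), took 1.83% ± 0.889 (SD, n = 5) of reads in granules and 0.442% ± 0.462 (SD, n = 4) in exosomes (exact p = 0.0476, adjusted 0.238). Without granule 3 their granule mean was 2.18% and the groups did not overlap (exact p = 0.0286, adjusted 0.143). RMRP was at 1227, 493, 847 and 575 CPM in exosomes and 3258, 4121, 2125, 4721 and 3734 CPM in granules (log2 ratio 2.19 ± 0.38 (SE), edgeR adjusted p = 0.00497), with no overlap. RPPH1 was at 11772, 3311, 10414 and 0 CPM in exosomes and 36335, 24407, 3938, 36908 and 27844 CPM in granules, which did not pass (edgeR adjusted p = 0.345).

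Transcripts annotated as retaining an intron were also a larger part of granule RNA. They took 7.57%, 8.19%, 6.01%, 9.41% and 7.73% of named-gene reads in granules 1 to 5, and 3.06%, 2.90%, 3.93% and 4.52% in exosomes. Every granule library, granule 3 among them, was above every exosome library. The means were 7.78% ± 1.22 (SD, n = 5) and 3.60% ± 0.763 (SD, n = 4), a ratio of 2.16 (exact 2-sided permutation p = 0.0159, adjusted over 21 transcript classes 0.0556). Without granule 3 the granule mean was 8.23%, a ratio of 2.28 (exact p = 0.0286, adjusted 0.06). The class thus missed the threshold both times. Other transcript classes, such as scaRNAs and unprocessed pseudogenes, reached the same p-values.

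**Figure D2:**
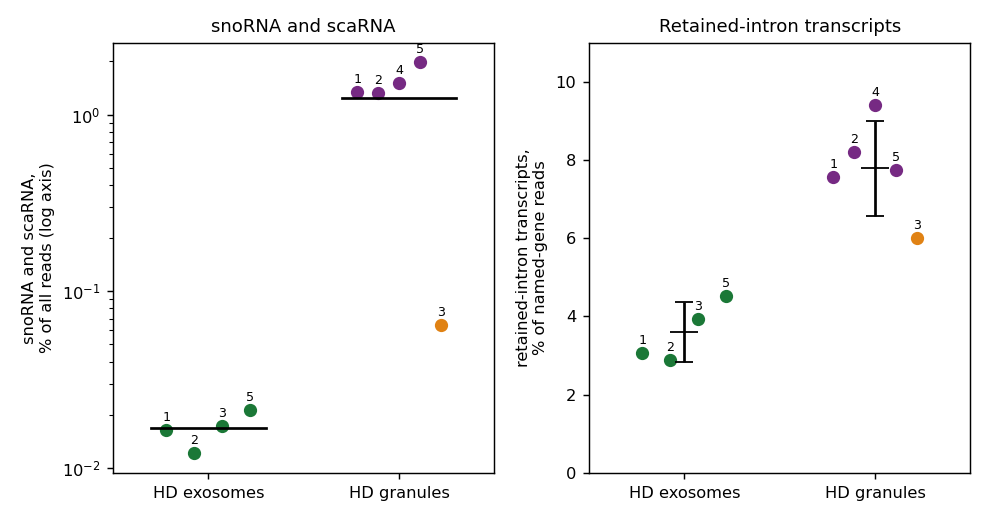
Share of reads per library (points, replicate number above; orange is HD granule 3): snoRNAs and scaRNAs in percent of all reads on a log axis with the mean as a line, and retained-intron transcripts in percent of named-gene reads with mean and SD. Granule 3 lies at 0.0641% on the left, close to the exosomes, and at 6.01% on the right, above all exosomes.

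Of 1527 long noncoding RNAs tested, 284 were higher in granules and 22 in exosomes, where 10.2% and 7.85% of all genes were so, with a median log2 ratio of 1.19 (351 and 28 of 1149 without granule 3). Some entered the test through the granules alone, so this count and median partly follow from the low-count filter. Of all reads lncRNAs took 1.13% ± 0.131 (SD, n = 5) in granules and 1.30% ± 1.24 (SD, n = 4) in exosomes (exact 2-sided permutation p = 0.889, adjusted 0.952). Exosome 2 held 3.15%, the other exosomes 0.577% to 0.792%, and granules 0.938% to 1.29%. Most snoRNAs are cut from introns of host transcripts, and the host GAS5 (chr1:173863901-173869045) was also higher in granules. GAS5 was at 146, 297, 143 and 122 CPM in exosomes and 1429.5, 3129, 363, 3605 and 2513 CPM in granules (log2 ratio 3.64 ± 0.63 (SE), edgeR adjusted p = 0.00496). All granules were above all exosomes, and granule 3 was the lowest granule. Of 20 tested snoRNA hosts and cytoplasmic lncRNAs, 5 were higher in granules and 1, DANCR, in exosomes (9 and 1 without granule 3). SNHG1 was at 48.6, 130.3, 124 and 116 CPM in exosomes and 298, 602, 109, 619 and 452 CPM in granules (log2 ratio 1.99 ± 0.49 (SE), edgeR adjusted p = 0.0198). SNHG29 was at 5.09, 0, 17.5 and 0 CPM in exosomes and 114, 174, 32.6, 254 and 217 CPM in granules, called with edgeR (adjusted p = 0.0116) but not with the replicate number as a block (adjusted p = 0.158). Antisense lncRNAs, transcribed from the strand opposite a gene, were called higher in granules in 36 of 163 and higher in exosomes in 1, TAPT1-AS1. Without granule 3 the counts were 33 and 1 of 107. Divergent transcripts start beside a promoter and run away from the gene. Of the antisense and divergent RNAs tested, 26 and 8 held no exosome reads and entered the test through the granules. The divergent transcripts were called higher in granules in 12 of 67 and in exosomes in 0 (13 and 0 of 46 without granule 3). Among them EOLA1-DT was at 0.268, 0, 0 and 0 CPM in exosomes and 4.83, 3.10, 3.96, 3.30 and 5.65 CPM in granules (log2 ratio 4.95 ± 0.85 (SE), edgeR adjusted p = 0.00476), with granule 3 inside the range of the other granules. Of 4 nuclear lncRNAs tested, 0 passed with 9 libraries, and 1, PVT1, passed without granule 3. MALAT1 was at 498, 412, 419 and 1126 CPM in exosomes and 978, 888, 2104, 1291 and 721 CPM in granules (edgeR adjusted p = 0.127), and this nuclear speckle RNA was at its highest in granule 3. Spliceosomal snRNAs gave 3 higher in granules and 1, RNVU1-7, higher in exosomes of 25, and 7 and 1 of 23 without granule 3. RNU2-2P was at 51.1, 115, 42.2 and 54.9 CPM in exosomes and 760.1, 994, 42, 1022 and 700.1 CPM in granules (log2 ratio 3.42 ± 0.74 (SE), edgeR adjusted p = 0.0121).

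The 3 genes with the smallest p-values toward exosomes, RAB13, TRAK2 and RASSF3, belong to a list of 11 mRNAs known for transport into cell protrusions. Several of these mRNAs are known to be carried through GA-rich stretches of the 3' UTR with the help of the tumour suppressor APC. Of the 11, 7 were higher in exosomes and 0 in granules, with a median log2 ratio of -2.15, against 7.85% of all genes called higher in exosomes. Without granule 3 the counts were 8 and 1, with a median of -2.57. The window around the longest run of A and G in the 3' UTR is shown for 6 of the called members because that feature is what the class is known for. The sequences are GENCODE release 29 transcripts of build GRCh38, 30 bases each, with the run in capitals.
RAB13: AGAAAGGAAAAAAAGGAAGAGAGAGGAAGG
NET1: ttAAAAGAAAAAGAGAGGAAAAGAGAGtag
KANK2: gatGGAGGAAGAGGGAGAGGAAAAAAAtat
TRAK2: gtgttcAGAGGGAGAAAAGAAAGGtttaat
RASSF3: ggcccccAAGAAAGGGAGGAAAGtccacac
PKP4: gaatggggtAGGGGAAAGAAGccccacagt

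The run spans 45 bases in RAB13, of which the first 30 are shown, and 0.395% of 13157 mRNAs hold one as long. It spans 25 bases in NET1 (5.96% of mRNAs), 24 in KANK2 (7.15%), 18 in TRAK2 (19.7%), 16 in RASSF3 (29.5%) and 12 in PKP4 (59.3%). In KIF1C, the other called member, the longest run of 21 bases is all A. Of the 7 called members RAB13 thus held the longest run. In the members not called, the longest run spans 19 bases in DDR2, 14 in CYB5R3, 14 in DYNLL1 and 10 in P4HB. The run of DDR2 is longer than those of TRAK2, RASSF3 and PKP4, so the length does not separate called from uncalled members. A run of at least 20 bases lay in 13.7% of all tested mRNAs, 14.1% of those higher in exosomes and 13.7% of those higher in granules. Among the 175 mRNAs at least 4-fold higher in exosomes it lay in 18.9%. A run of these letters describes the sequence and shows no binding.

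RAB13 encodes a small GTPase of membrane traffic (RefSeq, GRCh38.p14, chr1:153981650-153990708). RAB13 was at 1627, 1039.5, 1159 and 1529.6 CPM in exosomes and 19.8, 26.5, 31.4, 27.9 and 29.9 CPM in granules, so that exosomes were 49.4-fold higher (log2 ratio -5.63 ± 0.28 (SE), edgeR adjusted p = 5.25e-06). TRAK2 encodes an adaptor that ties mitochondria to kinesin. TRAK2 was at 1221, 1082, 1058 and 1725 CPM in exosomes and 41.1, 47.5, 37.7, 53.6 and 61.1 CPM in granules (log2 ratio -4.72 ± 0.28 (SE), edgeR adjusted p = 1.17e-05). In both mRNAs the compartments were more than 10-fold apart in every pair of libraries, and granule 3 sat with the other granules. NET1 encodes an exchange factor of RhoA. NET1 was at 1774, 1437, 1487 and 2689 CPM in exosomes and 136, 149, 116, 182 and 159 CPM in granules (log2 ratio -3.64 ± 0.29 (SE), edgeR adjusted p = 8.79e-05). RASSF3 belongs to the Ras association family. RASSF3 was at 491, 392, 484 and 578 CPM in exosomes and 33.5, 42.2, 39.8, 44.3 and 47.7 CPM in granules (log2 ratio -3.55 ± 0.21 (SE), edgeR adjusted p = 1.17e-05). KIF1C is a kinesin motor, and its exosome levels varied more. KIF1C was at 2731, 647, 1701 and 695 CPM in exosomes and 67.1, 35.7, 169, 35.6 and 33.8 CPM in granules (log2 ratio -4.40 ± 0.65 (SE), edgeR adjusted p = 0.00271), with granule 3 above the other granules but below all exosomes. For the junction protein PKP4 (log2 ratio -1.75) and the cortical protein KANK2 (log2 ratio -2.15) all exosomes were also above all granules. The 4 members not called were CYB5R3 (log2 ratio -1.22, edgeR adjusted p = 0.132), DDR2 (-0.16, 0.899), P4HB (0.61, 0.297) and DYNLL1 (1.37, 0.147). DYNLL1 was at 168, 264, 234 and 222 CPM in exosomes and 276, 1112, 61.5, 548 and 861 CPM in granules, higher in the other granules than in exosomes and lowest in granule 3. Without granule 3, CYB5R3 was called higher in exosomes (adjusted p = 0.00195) and DYNLL1 higher in granules (adjusted p = 0.00519).

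**Figure D3:**
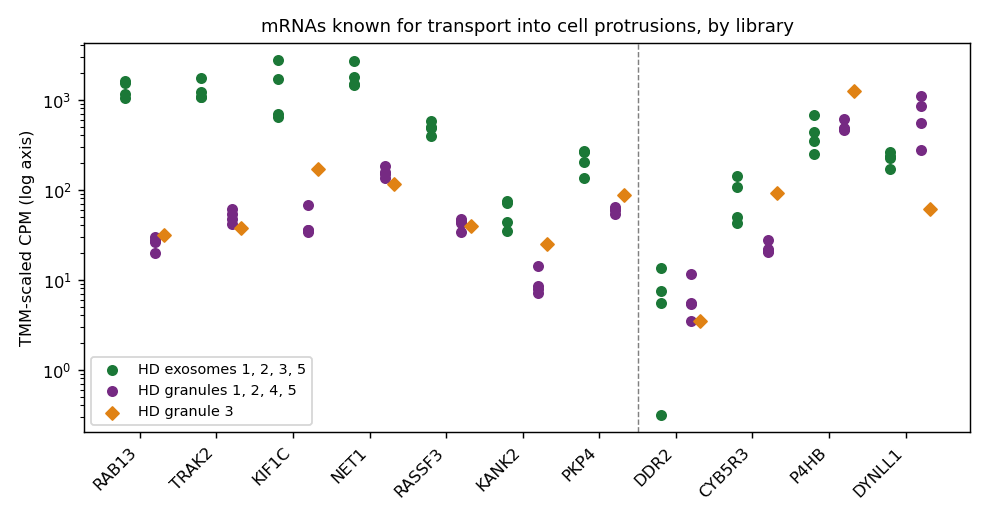
TMM-scaled CPM on a log axis of the 11 protrusion mRNAs in 4 exosome libraries (green), granules 1, 2, 4 and 5 (purple) and granule 3 (orange diamond), with the 7 called members left of the dashed line. For RAB13 exosomes lie at 1039.5 to 1627 CPM and all 5 granules at 19.8 to 31.4 CPM.

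In glycolysis, which turns glucose into pyruvate, 8 of 20 genes were higher in exosomes and 1 in granules (median log2 ratio -1.21), and 15 and 1 without granule 3. These counts and the next ones stand beside 7.85% of all genes called higher in exosomes and 10.2% in granules. Without granule 3 those shares were 18.2% and 19%. GAPDH was at 5049, 2976, 4715 and 2862 CPM in exosomes and 706, 808, 1857, 636 and 614 CPM in granules (log2 ratio -2.08 ± 0.40 (SE), edgeR adjusted p = 0.00785). Exosomes did not overlap with granules, and granule 3 was above the other granules. PGAM1 was at 753, 556, 693 and 515 CPM in exosomes and 148, 183, 279, 149.8 and 148 CPM in granules (log2 ratio -1.79 ± 0.26 (SE), edgeR adjusted p = 0.00265). The 1 gene higher in granules was SLC16A1, the membrane carrier that exports lactate, with a log2 ratio of 1.27 ± 0.24 (SE). Of 41 translation factors 18 were higher in exosomes, against 2 in granules (26 and 5 without granule 3). EEF1A1 was at 5412, 5010.4, 5706 and 6486 CPM in exosomes and 1363, 926, 1664, 697 and 1098 CPM in granules (log2 ratio -2.30 ± 0.32 (SE), edgeR adjusted p = 0.00237), the mRNA of the elongation factor that brings tRNAs to the ribosome. EIF3I was at 433, 367, 399 and 295 CPM in exosomes and 54.9, 64.7, 144, 62.3 and 60.7 CPM in granules (log2 ratio -2.27 ± 0.31 (SE), edgeR adjusted p = 0.00224), a subunit of initiation factor 3. Both were higher in each exosome library than in any granule. In the proteasome, which degrades tagged proteins, 17 of 31 genes were higher in exosomes, against 2 in granules (18 and 5 without granule 3), PSMB6 with a log2 ratio of -2.03 ± 0.25 (SE) and PSMD8 with -2.12 ± 0.31 (SE). Of 22 actin and tubulin genes 15 were higher in exosomes and 0 in granules (median -1.48), and 19 and 2 without granule 3. TUBA1B was at 2086, 1169, 2147 and 1107 CPM in exosomes and 262, 275, 690.1, 181 and 219.8 CPM in granules (log2 ratio -2.32 ± 0.43 (SE), edgeR adjusted p = 0.00657). TUBA4A was at 53.3, 15.7, 56.5 and 26.5 CPM in exosomes and 0.977, 1.93, 2.08, 1.65 and 1.33 CPM in granules (log2 ratio -4.57 ± 0.45 (SE), edgeR adjusted p = 0.000663). These tubulin mRNAs were lower in every granule than in any exosome library. Cell cycle genes gave 14 higher in exosomes and 3 in granules of 36 (22 and 5 without granule 3), with MCM6 at a log2 ratio of -1.01 ± 0.19 (SE) and RRM2 at -0.98 ± 0.18 (SE). Heat shock chaperones gave 9 higher in exosomes and 2 in granules of 29 (14 and 3 without granule 3). Among the 9 were the chaperonin subunits CCT5 (-1.46) and CCT7 (-1.83).

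Of 38 genes for exosome biogenesis and marker proteins, 9 were higher in exosomes and 0 in granules, with a median log2 ratio of -0.62, and 15 and 1 of 36 were so without granule 3. Of all genes 7.85% and 10.2% were so, and 18.2% and 19% without granule 3. ANXA2 was at 278, 283, 408 and 373 CPM in exosomes and 86.1, 116, 107, 136 and 117 CPM in granules (log2 ratio -1.58 ± 0.21 (SE), edgeR adjusted p = 0.00224), the mRNA of a membrane-binding annexin found on vesicles. SNF8, VPS25 and ARF6, which act in sorting and budding at endosomes, had log2 ratios of -1.79, -1.12 and -0.90, and all 3 were called. These are mRNAs for vesicle proteins and not the proteins by which exosomes are recognised.

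**Figure D4:**
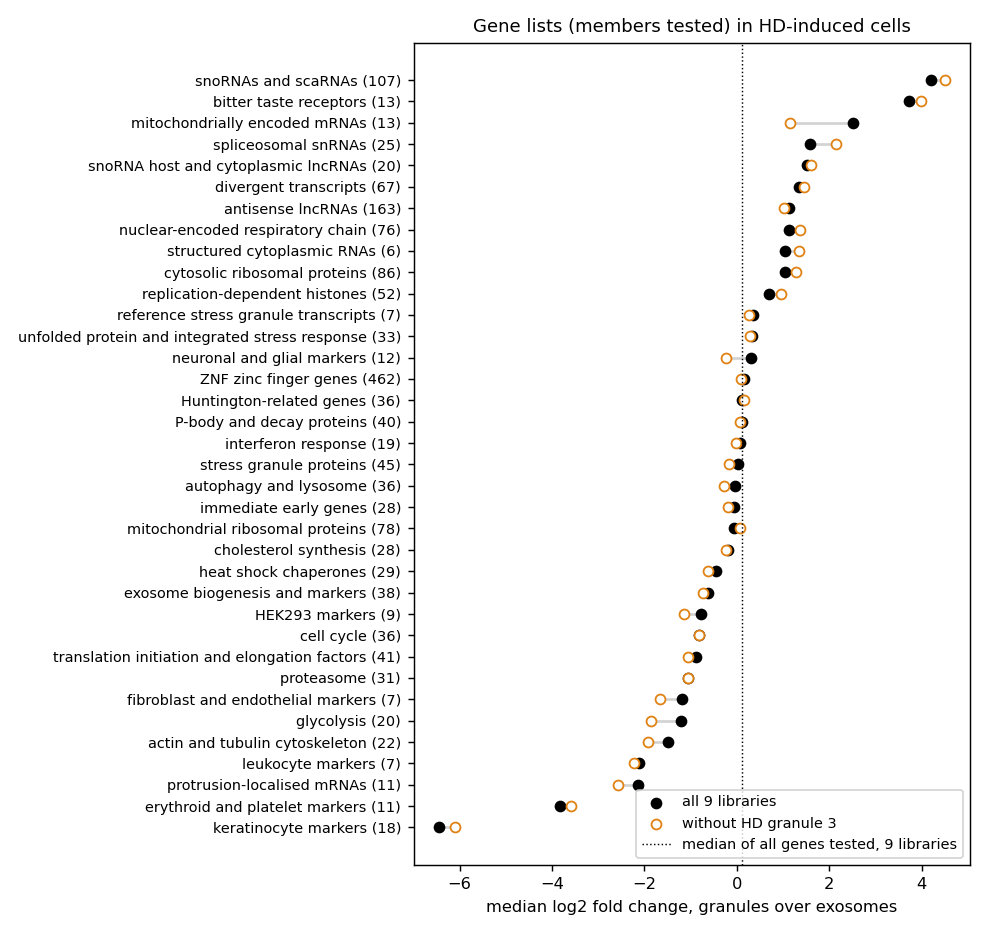
Median log2 ratio of granules over exosomes for each gene list with at least 6 tested members (number tested in brackets), with all 9 libraries (black) and without HD granule 3 (orange circles); the dotted line is the median of all genes tested, 0.11. snoRNAs and scaRNAs lie highest at 4.20, and protrusion mRNAs lie at -2.15.

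Several mRNAs for proteins of the endoplasmic reticulum were higher in granules. Of 33 genes of the unfolded protein and integrated stress response, through which cells answer misfolded protein, 11 were higher in granules and 1 in exosomes, against 10.2% and 7.85% of all genes (12 and 4 without granule 3). HSP90B1 was at 391, 464, 225 and 415 CPM in exosomes and 1400.5, 1367, 1656, 1956 and 1919 CPM in granules (log2 ratio 2.15 ± 0.29 (SE), edgeR adjusted p = 0.00224), the chaperone GRP94. HSPA5 was at 388, 358, 240.2 and 241 CPM in exosomes and 715, 822, 1432, 791 and 836 CPM in granules (log2 ratio 1.58 ± 0.29 (SE), edgeR adjusted p = 0.00679), the chaperone BiP. In both mRNAs every granule library was above every exosome library, and granule 3 lay within or above the other granules. SEL1L was at 36.6, 37.6, 44.1 and 67.2 CPM in exosomes and 251, 229, 153, 262 and 283 CPM in granules (log2 ratio 2.34 ± 0.28 (SE), edgeR adjusted p = 0.00147), an adaptor for removing misfolded proteins. EIF2AK3 was at 20.2, 22.6, 27.9 and 17.7 CPM in exosomes and 76.9, 85.5, 64.8, 118 and 109 CPM in granules (log2 ratio 2.05 ± 0.27 (SE), edgeR adjusted p = 0.00197), the stress kinase PERK. CANX, a lectin chaperone of the same compartment, had a log2 ratio of 1.13 ± 0.26 (SE) and PDIA3, which forms disulfide bonds, had 1.41 ± 0.23 (SE).

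Mitochondrially encoded mRNAs, which are made and translated inside mitochondria, were higher in granules in 7 of 13 and in exosomes in 0, with a median log2 ratio of 2.52. Without granule 3 the counts were 7 and 2 and the median was 1.16. Among all genes 10.2% were called higher in granules and 7.85% in exosomes, and 19% and 18.2% without granule 3. MT-ND3 was at 44.4, 50.8, 9.09 and 33.5 CPM in exosomes and 275, 639, 456, 597 and 769 CPM in granules (log2 ratio 3.98 ± 0.50 (SE), edgeR adjusted p = 0.00175). MT-ATP6 was at 52.8, 26.3, 4.54 and 15.2 CPM in exosomes and 212, 444, 639.5, 323 and 366 CPM in granules (log2 ratio 3.97 ± 0.61 (SE), edgeR adjusted p = 0.00313). MT-ND2 was at 109, 236, 47.4 and 70.7 CPM in exosomes and 474, 536, 3242, 482 and 398 CPM in granules (log2 ratio 3.15 ± 0.78 (SE), edgeR adjusted p = 0.0204). For MT-ND3 granule 3 lay within the other granules, whereas MT-ND2 was at 3242 CPM in granule 3, above every other library. With the replicate number as a block MT-ND2 did not pass (adjusted p = 0.09), and 5 of 13 were called. As a class these mRNAs took 4.23% of all reads in granule 3, 0.605% to 0.783% in the other granules and 0.0950% to 1.31% in exosomes. The class mean was 1.39% ± 1.59 (SD, n = 5) in granules and 0.765% ± 0.533 (SD, n = 4) in exosomes, and without granule 3 granules were lower than exosomes by less than the spread between libraries.

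Nuclear-encoded genes of the respiratory chain divided. Of 76, 30 were higher in granules and 8 in exosomes (45 and 15 without granule 3), but with the replicate block 11 and 13 were called. The shares of all genes were 10.2% and 7.85%, 19% and 18.2% without granule 3, and 9.37% and 9.39% with the block. The 8 and the 15 higher in exosomes were thus near the shares of all genes. NDUFS5 was at 9.11, 0, 0 and 0 CPM in exosomes and 47.1, 111, 12, 92.2 and 46.5 CPM in granules (log2 ratio 4.32 ± 1.08 (SE), edgeR adjusted p = 0.0206). COX6A1 was at 172, 203, 195 and 209 CPM in exosomes and 1261, 2214, 207, 2439 and 3961 CPM in granules (log2 ratio 3.37 ± 0.67 (SE), edgeR adjusted p = 0.00836), picked after its values were seen, a small subunit of complex IV, with granule 3 at the exosome level. On the other side, ATP5F1B was at 1206, 1057, 1179 and 1002 CPM in exosomes and 421, 431, 602, 359.5 and 368 CPM in granules (log2 ratio -1.35 ± 0.23 (SE), edgeR adjusted p = 0.00496), the catalytic subunit of ATP synthase. Exosomes were above all granules there, granule 3 among them. Cytosolic ribosomal proteins behaved alike: 21 of 86 were higher in granules and 12 in exosomes, 48 and 13 without granule 3, and 7 and 12 with the block. RPL39 was at 1549, 2190.0, 1168 and 1570.0 CPM in exosomes and 3948, 12600.2, 664, 14376 and 13821 CPM in granules (log2 ratio 2.49 ± 0.74 (SE), edgeR adjusted p = 0.0394), among the 5 RNAs of highest mean TPM in granules, and it was not called with the block (adjusted p = 0.122). RPLP0 was at 4430.3, 3815, 4793 and 3084 CPM in exosomes and 1064, 798, 1201, 652 and 853 CPM in granules (log2 ratio -2.14 ± 0.29 (SE), edgeR adjusted p = 0.00224), and RPS2 was at 5365, 2868, 4637 and 2716 CPM in exosomes and 1514, 1852, 1888, 688 and 938 CPM in granules (log2 ratio -1.50 ± 0.38 (SE), edgeR adjusted p = 0.0224). Granules 1, 2, 4 and 5 were above the exosomes for RPL39, granule 3 was below them, and all granules were below the exosomes for RPLP0 and RPS2. Of 78 mitochondrial ribosomal proteins 3 were higher in granules and 15 in exosomes, and 23 and 24 without granule 3. Of 52 replication-dependent histone genes, whose mRNAs lack a poly(A) tail, 13 and 9 were called, 26 and 11 of 48 without granule 3, and 4 and 10 with the block.

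Other families were smaller in expression. Of 13 bitter taste receptors, whose coding sequence lies in a single exon, 9 were higher in granules, 0 in exosomes, and the median log2 ratio was 3.73. Without granule 3 the counts were 9 and 0 of 11. Of the 13, 3 held no exosome reads and entered the test through the granules. TAS2R30 was at 0.804, 1.25, 0 and 1.58 CPM in exosomes and 11.1, 13.4, 4.51, 14.5 and 9.34 CPM in granules (log2 ratio 3.46 ± 0.66 (SE), edgeR adjusted p = 0.00732) and every granule was above every exosome library. With the block 6 of 13 were called. Zinc finger genes gave 34 higher in granules and 6 in exosomes of 462, shares below those of all genes. Without granule 3 the counts were 68 and 44 of 452, against 19% and 18.2% of all genes. ZNF680 was at 16.3, 32.6, 18.2 and 29.4 CPM in exosomes and 126, 127, 36.6, 119 and 169 CPM in granules (log2 ratio 2.27 ± 0.42 (SE), edgeR adjusted p = 0.00681). Of 28 cholesterol synthesis genes 4 were higher in granules and 6 in exosomes (7 and 9 without granule 3), against 10.2% and 7.85% of all genes, with FDFT1, the squalene synthase, higher in exosomes (-1.25 ± 0.19 (SE)). Immediate early genes gave 2 and 0 of 28 with and without granule 3, EGR1 and CCN1 both times, shares below those of all genes. EGR1 was at 119, 69.6, 101 and 75.1 CPM in exosomes and 312, 199.9, 649, 149 and 187 CPM in granules (log2 ratio 1.72 ± 0.43 (SE), edgeR adjusted p = 0.0218), highest in granule 3. Autophagy and lysosome genes gave 0 and 4 of 36, BECN1, ATP6V0D1, TFEB and MAP1LC3A (1 and 10 without granule 3). Interferon response genes gave 0 and 1 of 19, MX1 (0 and 1 of 16 without granule 3), below the shares of all genes. With the block TFEB and MX1 were not called (adjusted p = 0.0937 and 0.186).

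The mRNAs for granule proteins were called in both directions. Of 45 stress granule proteins 3 were higher in granules and 5 in exosomes, and of 40 P-body and decay proteins 5 and 7, against 10.2% and 7.85% of all genes, with median log2 ratios of 0.03 and 0.11. Without granule 3 the counts were 7 and 13 and 8 and 10, against 19% and 18.2% of all genes. The stress granule median was then -0.16. YBX1 was at 1718, 996, 1011 and 1070.2 CPM in exosomes and 179.7, 212, 562, 190.3 and 157 CPM in granules (log2 ratio -2.20 ± 0.41 (SE), edgeR adjusted p = 0.00659), an RNA-binding protein of granules and of exosomal RNA sorting. Every exosome library was above every granule, and granule 3 was above the other granules. YBX3, a relative, was higher in granules (1.03 ± 0.21 (SE)). ELAVL1 (HuR), which stabilises mRNAs, had a log2 ratio of -1.51 ± 0.21 (SE). AGO1 was at 827, 607, 767 and 899 CPM in exosomes and 208, 133, 236, 110.4 and 120.0 CPM in granules (log2 ratio -2.26 ± 0.29 (SE), edgeR adjusted p = 0.00183), the mRNA of an Argonaute protein that holds microRNAs. LSM3 was at 58.8, 69.6, 56.5 and 94.4 CPM in exosomes and 190.1, 745, 55.5, 811 and 739 CPM in granules (log2 ratio 2.86 ± 0.68 (SE), edgeR adjusted p = 0.017), the mRNA of a decapping cofactor, which was not called with the block (adjusted p = 0.0623). Of 7 tested transcripts used as references for stress granules, TFRC (1.15 ± 0.30 (SE)) and MDN1 (0.64 ± 0.20 (SE)) were higher in granules. AHNAK was at 709, 747, 876 and 897 CPM in exosomes and 215, 94.2, 213, 77.0 and 116 CPM in granules (log2 ratio -2.50 ± 0.34 (SE), edgeR adjusted p = 0.00224), so this long reference mRNA was higher in all exosomes than in any granule.

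HTT itself did not differ detectably. HTT was at 234, 272, 178 and 122 CPM in exosomes and 243, 150.1, 234, 140.0 and 132 CPM in granules, and the ranges overlapped (log2 ratio -0.16 ± 0.29 (SE), edgeR adjusted p = 0.73). Without granule 3 its log2 ratio was -0.30 (adjusted p = 0.435). Of 36 Huntington-related genes 3 were higher in granules and 3 in exosomes (7 and 10 of 35 without granule 3), shares near the 10.2% and 7.85% of all genes. CREBBP, a histone acetyltransferase, was higher in granules (0.81 ± 0.19 (SE)), as was ZDHHC17, which attaches palmitate to huntingtin (1.39 ± 0.32 (SE)). ZDHHC17 was at 32.7, 53.9, 42.2 and 55.2 CPM in exosomes and 93.7, 134, 59.7, 162 and 151 CPM in granules, with no overlap between the groups. The actin-binding profilins PFN1 (-1.95 ± 0.46 (SE)) and PFN2 (-1.76 ± 0.21 (SE)) were higher in exosomes.

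Most tested keratinocyte and erythroid markers, which belong to other cell types, were higher in exosomes. By comparison, 7.85% of all genes were called higher in exosomes and 10.2% in granules, and 18.2% and 19% without granule 3. Of 18 tested keratinocyte markers 14 were higher in exosomes, with 0 in granules (median log2 ratio -6.45), and the summed level of the 28 listed was 936 to 2557 CPM in exosomes and 319 to 729 CPM in granules. KRT5 was at 4.96, 63.3, 77.9 and 324 CPM in exosomes and 0.109, 0.509, 0.0784, 0.873 and 0.616 CPM in granules (log2 ratio -8.05 ± 1.13 (SE), edgeR adjusted p = 0.00237). KRT6A was at 5.09, 76.4, 76.6 and 156 CPM in exosomes and 0, 0.356, 0, 0.0485 and 0.257 CPM in granules (log2 ratio -9.15 ± 1.12 (SE), edgeR adjusted p = 0.00175). These keratins of the epidermis were low in exosome 1, high in exosomes 2, 3 and 5, and below 1 CPM in all granules. Of 11 erythroid and platelet markers 6 were higher in exosomes, 0 in granules, 3 with the block, and 20 summed to 122 to 2287 CPM in exosomes and 18.4 to 111 CPM in granules. ALAS2 was at 22.4, 16.9, 20.1 and 10.1 CPM in exosomes and 0, 0.0509, 0.0392, 0 and 0 CPM in granules (log2 ratio -9.25 ± 0.72 (SE), edgeR adjusted p = 8.79e-05), the haem synthesis enzyme of red cells, and HBG1 was at 30.7, 199, 119 and 602 CPM in exosomes and 9.07, 33.9, 3.88, 25.7 and 10.2 CPM in granules (log2 ratio -3.84 ± 0.83 (SE), edgeR adjusted p = 0.0117, with the block 0.0524), a globin whose reads HBG2 can share. Of 7 leukocyte markers 2 were higher in exosomes, LAPTM5 and CORO1A, and the 18 summed to 26.7 to 56.1 CPM in exosomes against 6.52 to 15.5 CPM in granules. Of 7 fibroblast and endothelial markers 2 were higher in exosomes, COL1A2 and PDGFRB (with the block, adjusted p = 0.0537 for PDGFRB), with sums of 34.4 to 142 CPM against 7.28 to 54.3 CPM. Of 1 serum and liver marker and 12 neuronal and glial markers tested, 0 and 1 (SYT1, higher in granules) were called. HEK293 markers summed to 3841 to 7487 CPM in exosomes and 1290 to 4185 CPM in granules, and 8 to 10 of the 10 listed had reads in each library. GAPDH, with its levels given above, was the larger part of the sum in every exosome library. The sum therefore mostly follows that mRNA there and does not identify the cell line. Of 9 tested, CDH2 was higher in granules, and LIN28B and GAPDH higher in exosomes. Without granule 3, 1 was higher in granules and 6 in exosomes of 8. The part of these other cell types in the results was not tested.

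Granule 3 did not shift evenly toward the exosomes. Among the 2842 genes called higher in granules without it, granule 3 was above all exosome libraries in 41.3%, and among the 2719 called higher in exosomes it was below all of them in 43.4%. Of the called genes of the unfolded protein list it was above all exosomes in 12 of 12, and in mitochondrially encoded mRNAs in 7 of 7. It was above all exosomes in 0 of 48 cytosolic ribosomal proteins, 0 of 23 mitochondrial ribosomal proteins, 0 of 26 histones, 2 of 45 respiratory chain genes and 16 of 64 snoRNAs and scaRNAs. Its median difference from the exosome mean, as log2(CPM + 0.5), was -0.82 in the ribosomal proteins, where the other granules were at 1.89. In the unfolded protein list it was 1.42, where the other granules were at 1.28. On the exosome side granule 3 was below all exosomes in 7 of 8 protrusion mRNAs, 17 of 18 proteasome genes and 12 of 14 keratinocyte markers, but in 6 of 15 glycolysis genes. In mitochondrially encoded mRNAs it lay above the other granules as well, as the class share and MT-ND2 show.

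**Figure D5:**
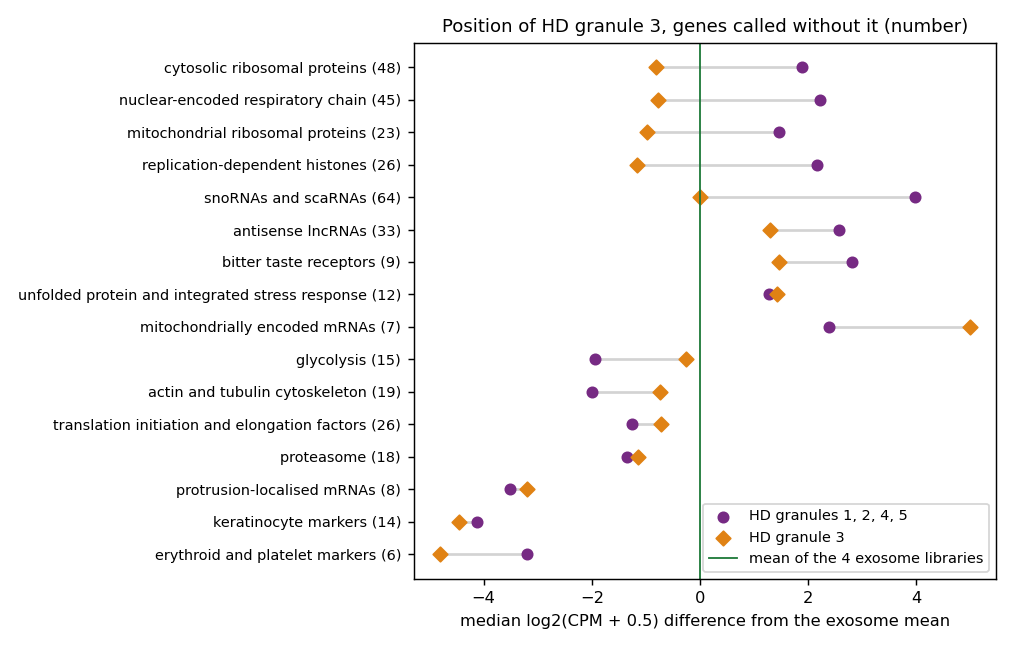
Median difference from the exosome mean in log2(CPM + 0.5), for genes called without granule 3, in granules 1, 2, 4 and 5 (purple) and in granule 3 (orange); the upper 9 lists are genes higher in granules and the lower 7 genes higher in exosomes, with their number. Granule 3 lies at -0.82 for cytosolic ribosomal proteins, where the other granules lie at 1.89, and at 1.42 against 1.28 for the unfolded protein list.

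Across 13698 tested mRNAs the log2 ratio rose weakly with the length of the longest transcript (Spearman's rho 0.16) and fell with GC content (rho -0.33 over 12529 mRNAs, -0.48 without granule 3). In control cells these were 0.19 and -0.50. These are descriptions across genes of the same libraries, which are not independent. The median mRNA called higher in granules had 4899 bases and 41.8% GC, against 3014 bases and 49.2% GC for those higher in exosomes, and 3958 bases and 48.4% GC over all tested.

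Genes are ranked next among those with a RefSeq symbol, a mean of 5 CPM or more in one group, a call with and without granule 3, and no overlap of libraries. By fold change, the leading mRNAs of granules so chosen held 0 reads in exosomes or nearly so. TICAM2 was at 0, 0, 0 and 0 CPM in exosomes and 4.94, 8.09, 2.12, 17.8 and 11.7 CPM in granules (edgeR adjusted p = 0.00705), an adaptor of Toll-like receptor signalling, at least 39.8-fold higher in granules against a floor of 3 reads over the exosome group. OMG was at 0.804, 0, 0 and 0.631 CPM in exosomes and 12.9, 13.4, 5.37, 15.4 and 7.65 CPM in granules (log2 ratio 4.44 ± 0.72 (SE), edgeR adjusted p = 0.00377), a myelin glycoprotein gene. MT1F was at 0.536, 0, 0 and 0 CPM in exosomes and 4.02, 8.91, 0.549, 6.01 and 9.29 CPM in granules (log2 ratio 4.55 ± 1.11 (SE), edgeR adjusted p = 0.0193), a metallothionein that binds zinc. All granules were above all exosomes in these 3 genes, at low levels. The others were P3R3URF-PIK3R3 (at least 80.4-fold), which shares exons with PIK3R3, PIERCE2, NDUFS5 and MAGED4. Among lncRNAs PCGF3-AS1 was at 0, 0, 0 and 0 CPM in exosomes and 10.4, 10.9, 3.33, 4.27 and 7.55 CPM in granules (at least 32.1-fold, edgeR adjusted p = 0.0042). SPAG5-AS1 and PSMA3-AS1 were at least 24.4-fold and 21.9-fold higher in granules, and PCAT19 was at 0.268, 0, 0 and 0 CPM in exosomes and 4.40, 7.84, 0.705, 8.49 and 18.0 CPM in granules (log2 ratio 5.83 ± 1.21 (SE), edgeR adjusted p = 0.00996). Within these filters, which leave out RPL39 and COX6A1 because their libraries overlap and MT-ND2 because RefSeq lists it under another symbol, the most abundant mRNAs that differed at least 2-fold were CANX, HSP90B1, HSPA5 and DYNC2H1, a dynein of cilia (1.25 ± 0.29 (SE)).

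On the exosome side RPL10L was at 15.8, 15.0, 19.5 and 2.84 CPM in exosomes and 0, 0, 0, 0 and 0 CPM in granules (at least 454-fold higher in exosomes, edgeR adjusted p = 0.00237). This retrogene of RPL10 can share reads with its parent. RGS18 was at 5.63, 13.8, 18.2 and 13.3 CPM in exosomes and 0, 0, 0, 0 and 0 CPM in granules (at least 336-fold, edgeR adjusted p = 0.00175), a regulator of G protein signalling known from platelets. The others were ALAS2 and the keratins KRT5, KRT6A, KRT6B (at least 634-fold) and KRT16, of which KRT6A and KRT6B are near copies that can share reads. Within the same filters the lncRNA-class transcripts with the largest fold were C22orf46P, FAM27C, SORD2P and SENP3-EIF4A1, the last sharing exons with EIF4A1. C22orf46P was at 84.6, 41.4, 63.6 and 23 CPM in exosomes and 3.85, 3.36, 13.1, 2.28 and 2.41 CPM in granules (log2 ratio -3.40 ± 0.60 (SE), edgeR adjusted p = 0.00532), with no overlap. The most abundant mRNAs of this side that differed at least 2-fold were EEF1A1, RPLP0, GAPDH and RPS2.

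At a TPM of at least 1 in every library of a group, 8738 genes were detected in granules and 4114 in exosomes. Both groups shared 4040, which is 98.2% of the exosome genes and 46.2% of the granule genes. Without exosome 2, 9962 genes were detected in exosomes and 8131 in both, so the smaller exosome count rested on that library. TPM, unlike CPM, is per length, and it is scaled over all entries, those without a gene name included. In exosome 2, 86.6% of reads lay on such entries. On the TPM scale RPPH1 led granules with 33231 ± 12661 TPM (SD, n = 5) and RNU1-1, the U1 snRNA, led exosomes with 21933 ± 17325 TPM (SD, n = 4). RNU1-1 was listed at 0 in exosome 2 and in granules 1, 4 and 5, so its estimate was not stable between replicates. RNY1, a Y RNA, was at 5369, 1178, 26152 and 21730.5 TPM in exosomes and at 0, 2566, 0, 0 and 2773 TPM in granules, and did not pass on its counts (edgeR adjusted p = 0.256).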

How the data were processed

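Total RNA of 5 HD-induced granule and 4 HD-induced exosome libraries was analysed, with 10 control libraries for comparison. Per the submitters' processing notes the authors used Trimmomatic, cutadapt, FastQC and Salmon with build GRCh38.p14. Tool versions and the annotation release were not known for this work. Each deposited file lists 921552 entries, 251955 of them named transcripts of 62266 genes, with an expected count (estimated reads) and TPM. The entries without a gene name stayed out of gene tests and library sizes, and their reads are given as a share. Such entries can share sequence with named genes, so levels of small RNAs depend on how reads were divided. HD exosome 4, with 1074 reads, was left out. Some sequences and 1 gene are not reported here.

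Expected counts were summed per gene, rounded and tested with edgeR 4.0.16 (R 4.3.3): filterByExpr, TMM scaling, robust quasi-likelihood F test, Benjamini-Hochberg adjustment over all genes tested, called under 0.05. The standard error is the log2 fold change divided by the square root of F. Class shares were compared by exact 2-sided permutation tests (scipy 1.17.1). Gene classes were taken from the transcript types in the files. Lists are described by counts and medians without a set test. The low-count filter works by group, so an RNA can enter the tests through 1 group alone. One-sided counts and medians of lists with such RNAs partly follow from this filter. Gene positions are from RefSeq (GRCh38.p14), and 3' UTR sequences from GENCODE release 29. Where a group held 0 reads, the fold is a bound against 3 reads over the group.

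The members and gene lists were chosen with earlier results of these data known. Genes named by rule were, per direction, called with 9 libraries and without granule 3, with a RefSeq symbol, averaging 5 CPM or more in one group, with no overlap of libraries: the 7 mRNAs and 4 lncRNAs of largest fold and the 4 most abundant mRNAs that differ at least 2-fold. HTT, up to 4 members of each list with the smallest p, the 5 genes of highest mean TPM per group and the interaction calls were added. The remaining members of the protrusion list, SNORD15B and COX6A1 were chosen after their values were seen, as were genes listed to name a count of 5 or fewer.

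Same-numbered exosome and granule libraries deviated together from their group means (r = 0.407, 0.28, 0.389 and 0.525 for numbers 1, 2, 3 and 5 over 10421 genes). A fit with the number as a block was therefore made as an alternative, while the main fit did not use the number. Not every library correlated best with its own number: exosome 1 did so with granule 3 (0.606), exosome 2 with granule 4 (0.339) and exosome 5 with granule 4 (0.564). Exosomes 1 and 3 correlated positively with granules 1 and 3, and exosomes 2 and 5 with granules 2, 4 and 5. These values therefore do not establish pairs, and the labels do not say which libraries share a culture. Alternatives were RLE and upper-quartile scaling, no low-count filter, DESeq2 1.42.0, limma 3.58.1 voom with quality weights, each library left out, and HD exosome 4 kept. Tested on simulated data of 16172 genes in the 9-library comparison, the fit recovered 34 of 100 genes changed 4-fold and 4 of 100 changed 2-fold, with 2 false calls.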

Additional observations from a re-analysis of the deposited data

Results flagged for a closer look

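Of 262 groups of 4 or 5 libraries examined, 39 held a library far from the others of its group. The nominal rate of the rule is about 1 in 20, for independent values of normal spread. Here the groups share libraries, and a group with reads in 1 library only is always flagged, so the chance rate is not known. Most of the 39 were granule 3. It was high in the mitochondrial mRNA share of reads (4.23%), in the summed fibroblast and endothelial markers (54.3 CPM), neuronal and glial markers (92.7 CPM) and HEK293 markers (4185 CPM). Among RNAs that were higher in exosomes it was the highest granule for GAPDH (1857 CPM), PGAM1 (279), TUBA1B (690.1), YBX1 (562), EIF3I (144), ELAVL1 (94.6), CCT7 (336), KIF1C (169), SNF8 (70.8), ATP6V0D1 (45), C22orf46P (13.1) and PDGFRB (0.744). It was also the highest granule for CYB5R3 (92.1 CPM), P4HB (1246), HSPA5 (1432), MAGED4 (12.6) and MT-ND2 (3242), and the lowest for SCARNA5 (73.1).

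Exosome 2 stood apart with 86.6% of reads on unnamed entries, with an lncRNA share of 3.15% against 0.577% to 0.792%, and with GAS5 at 297 CPM. Exosome 1 was high for YBX1 (1718 CPM) and LAPTM5 (15.0) and low for FAM27C (2.81) and SNHG1 (48.6). It alone among exosomes held reads of EOLA1-DT (0.268 CPM), PCAT19 (0.268), MT1F (0.536), PIERCE2 (0.536), MAGED4 (0.670), SNORD13 (0.134) and NDUFS5 (9.11). Exosome 5 was high for MALAT1 (1126 CPM), granule 4 for DDR2 (11.4 CPM) and granule 2 for RNU1-1 (14168 CPM).

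The ratio of granules to exosomes differed between HD-induced and control cells by the interaction test of edgeR for 2 genes. PDCD6P1, a pseudogene, was at 4.14, 3.15, 2.60 and 7.28 CPM in HD exosomes 1, 2, 3 and 5, at 0 CPM in all 5 control exosomes, and at 1.23 to 7.81 CPM in granules of both states. Its log2 ratio differed by -8.12 ± 1.07 (SE), adjusted p = 0.0155. ENSG00000290793 was at 0 CPM in all 4 HD exosomes, at 2.09 to 5.20 CPM in control exosomes and at 2.31 to 6.09 CPM in granules, a difference of 8.36 ± 1.16 (SE), adjusted p = 0.0155. Both rest on few reads, neither passed with the replicate block, and these fitted sizes depend on groups without reads.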

How the results depend on the processing

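The direction of the comparison held widely, while the number of calls depended on the libraries and the test. Against 1648 genes higher in granules and 1270 in exosomes, DESeq2 called 2822 and 1846, voom with quality weights 3680 and 3135, and a fit over all 19 libraries 3291 and 2628. Without granule 3 there were 2842 and 2719, without exosome 2 and granule 3 3065 and 2693, and without exosome 5 and granule 3, which was added after the data were seen, 3632 and 3136. The replicate block gave 1516 and 1519, and 2642 and 2714 without granule 3, also added later. Keeping HD exosome 4 gave 1720 and 833. Leaving out one library gave 716 to 2842 higher in granules and 718 to 2719 in exosomes. The interaction count of 2 became 21 with DESeq2 and 0 with the block, and 0 to 20 with one library left out.

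Of 115 genes named in the report and followed across settings, 105 were called. The mRNAs first named under Other observations and the genes of the interaction test were not among the 115. Counting only genes that could be tested in a setting, 20 lost the call when some single library was left out: CORO1A, DANCR, DYNC2H1, EGR1, FAM27C, LSM3, MDN1, MT-ND2, MX1, NDUFS5, P3R3URF-PIK3R3, PDGFRB, PFN1, PSMA3-AS1, RNVU1-7, RPL39, RPS2, SNHG1, TFEB and TFRC. With the block 8 lost it, with HD exosome 4 kept 10 of 90 tested (ARF6, ATP5F1B, CANX, GAPDH, MCM6, MDN1, RNVU1-7, RPLP0, RPS2 and RRM2), without the low-count filter 9, with RLE scaling 1 (RNVU1-7) and with upper-quartile scaling 1 (MDN1). DESeq2 lost 0 of 104, giving no adjusted p for MT-ND2. The block changed no other call among these 115 genes except CYB5R3 and PVT1, which it added. Uncalled genes changed sign. HTT ran from -0.33 to 0.026 with one library left out, the latter without exosome 2. DDR2 came to 0.38 with the block without granule 3, 0.25 with voom, 0.071 without exosome 2 and granule 3, 0.44 without exosome 3 and 0.02 without granule 1, with a lowest value of -0.57 without granule 4. RNU1-1 came to -6.62 with the block, -10.21 with the block without granule 3, -6.03 with voom and from -3.69 without granule 2 to 1.33 without exosome 1 with one library left out.

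The mitochondrial mRNA share of granules minus exosomes ran from -0.0810 percentage points without granule 3 to 0.825 without granule 1, and was -0.304 without exosome 2 and granule 3. No RNA class and no transcript class passed after adjustment in any setting run. List medians near 0 changed sign: stress granule proteins to -0.16 without granule 3, -0.20 also without exosome 2, -0.12 also without exosome 5 and -0.030 with the block, interferon response to -0.026 and -0.10 in the first 2 of these settings, neuronal and glial markers to -0.24 without granule 3, mitochondrial ribosomal proteins to 0.070, 0.18 and 0.061 in the first 3, and immediate early genes to 0.014 with the block. Genes detected in granules were 14323 at 10 counts. Those in exosomes were 6467, 2118 and 9489 at a TPM of 0.5, at a TPM of 2 and at 10 counts, and those in both 6357, 2075 and 9441. Without exosome 2 and granule 3 there were 9962 in exosomes and 8146 in both, and leaving out one library gave 4114 to 9962 and 4040 to 8131. The length relation was 0.053 with median lengths, 0.23 at 5 CPM or more and 0.11 to 0.21 with one library left out, and the GC relation -0.48 to -0.16. RLE scaling moved the median log2 ratio of all genes in control cells from -0.02 to 0.09. The causes were not tested. The exosome libraries held far fewer reads on named genes than the granules, and single RNAs at a few CPM rest on few reads there. Counting error is only part of the spread, since these reads carry no molecular identifiers.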

Other observations

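The 12 mRNAs with the smallest p-values toward granules, chosen after their values were seen, lie mostly outside the gene lists. Besides SEL1L and EIF2AK3 they are the nuclear protein RBBP6, the cyclin CCNL1, ELMOD2, the sodium channel SCN9A, the receptor tyrosine kinase ERBB4, the phosphatase receptor PTPRD, the integrin ITGB1, the matrix protein FREM2, the lysosomal channel MCOLN3 and the secretory protein NUCB2. NUCB2 was at 14.9, 14.4, 11.7 and 13.6 CPM in exosomes and at 88.2, 69.9, 63.0, 108 and 147 CPM in granules (log2 ratio 2.80 ± 0.31 (SE), edgeR adjusted p = 0.00115). SCN9A was at 14.7 ± 1.5 CPM (SD, n = 4) in exosomes and 66.1 ± 13.4 CPM (SD, n = 5) in granules. In each of these 12 mRNAs all granules, granule 3 among them, were above all exosomes.

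Among the 12 mRNAs with the smallest p-values toward exosomes, those outside the lists include MTURN, a regulator of neural progenitors, ARRDC4, an arrestin-domain protein, CTNNB1, which encodes beta-catenin, NUDT16, a nuclear decapping enzyme, and TMEM106C. MTURN was at 301, 349, 309 and 425 CPM in exosomes and at 36.5, 31.9, 25.5, 29.3 and 32.8 CPM in granules (log2 ratio -3.47 ± 0.21 (SE), edgeR adjusted p = 1.17e-05). CTNNB1 was at 1303 ± 177 CPM (SD, n = 4) in exosomes and 219 ± 21.5 CPM (SD, n = 5) in granules, and ARRDC4 at 142 ± 12 and 14.5 ± 3.13 CPM. In each of these 3 mRNAs granule 3 was the lowest granule.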
